A study of Homo sapiens with 27 samples.

Results

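Translation initiation and elongation factors, the proteins that load an mRNA and its first tRNA onto the ribosome and then drive the ribosome along the message, were followed by their mRNA levels in cells that lack their own ARID1A, a DNA-binding subunit of the BAF chromatin remodelling complex. Members were taken by name: every row of both raw count tables whose symbol starts with EIF1 to EIF6, EEF1 or EEF2. The stress kinases EIF2AK2 and EIF2AK3, pseudogenes and antisense rows were left out. This gave 78 of the 67130 rows, each table holding the same identifiers, and 144 rows of the family were left out as pseudogenes. Among the 78 rows, 5 were repeats of EEF1B2, EEF1D, EEF2K, EIF3K and EIF5A that stood at 0 in all 27 libraries, so 73 genes carried a count. The rule used no measured value, but it was chosen with earlier results of these data known.

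RNA sequencing libraries came in 9 groups of 3, all from cells with ARID1A knocked out. In 293T, a human embryonic kidney line, the knockout was sequenced without add-back (KO) or with a Flag-tagged ARID1A stably expressed from a lentivirus, either wild type (WT) or carrying V2084D, G2087E, G2087R or K2025E, which are missense changes near the C-terminal end of the protein. In cells labelled Huh7, a human liver cancer line, the knockout carried Flag-tagged WT, Flag-tagged V2084D, or Flag-tagged V2084D together with a knockdown of STUB1, a ubiquitin ligase (shSTUB1). There was no Huh7 knockout without add-back, and none of the 9 groups is labelled as carrying a control hairpin. An effect of carrying a hairpin therefore cannot be told apart from that of less STUB1. The labels do not say whether each line is 1 clone or a pool, nor whether the 3 libraries of a group came from separate cultures, so each p-value measures only the spread between these libraries, which may be technical.

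As background, eIF2 carries the initiator tRNA as a complex with GTP, and eIF2B recharges eIF2 after each round. eIF1, eIF1A, eIF3 and eIF5 assemble on the small ribosomal subunit and hold it while it scans for the start codon, and eIF4F (the cap-binding eIF4E, the scaffold eIF4G and the helicase eIF4A) brings in the capped mRNA. eEF1A then delivers each aminoacyl-tRNA and eEF2 moves the ribosome on by a codon. Many mRNAs of ribosomal proteins and elongation factors begin with a terminal oligopyrimidine (TOP) tract, through which growth signals acting on mTOR control their translation.

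Libraries held 33429483 to 55539529 counts in 293T and 59124374 to 79915177 in Huh7. Levels are given as CPM, counts per 1000000 counts of the TMM-scaled library. ARID1A stood at 119 to 194 CPM in 293T KO and at 5727 to 116307 in the add-back libraries, apart from G2087R replicates 1 and 2, at 294 and 326 CPM against 68482 in replicate 3. In the libraries labelled Huh7, ARID1A was 187 to 390 CPM throughout and lower in V2084D than in WT (-0.55 ± 0.18, adjusted p = 0.0325), and STUB1 fell from 207 to 290 CPM without the hairpin to 65.9 to 83.3 with it. Among 15 liver genes, GPC3 alone reached 10 CPM in a Huh7 library; albumin (ALB) averaged 0.622 CPM and AFP 0.0119 CPM there, and 8 of 9 genes that mark 293 cells averaged at least 1 CPM, so the line is named here only as labelled. K2025E replicates 2 and 3 stood apart on the first principal component of the 293T libraries, at 104.3 and 66.6. The other libraries ran from -47.8 (V2084D replicate 2) to 40.2 (WT replicate 1). Bulk RNA cannot tell fewer cells with a transcript from less of that transcript in each cell.

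TOP mRNAs are defined by the first bases of the transcript, so the start windows of members that the results turn on are shown from 15 bases before to 25 bases from the annotated RefSeq start (GRCh38.p14), 5′ to 3′ on the strand of the gene. Capitals mark a run of C and T that begins with a C at the start base and goes on for at least 4 more C or T. The first 8 members have such a run and the last 4 do not. EEF1B2 has 2 listed starts, and the one with the run is shown.
EEF1A1, chr6:73521008-73521047, minus strand: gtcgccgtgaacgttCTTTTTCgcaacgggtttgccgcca
EEF1B2, chr2:206159880-206159919, plus strand: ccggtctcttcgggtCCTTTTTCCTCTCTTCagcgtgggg
EEF2, chr19:3985439-3985478, minus strand: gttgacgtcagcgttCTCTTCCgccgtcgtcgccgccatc
EIF2S3, chrX:24054941-24054980, plus strand: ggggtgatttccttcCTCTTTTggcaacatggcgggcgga
EIF3F, chr11:7987322-7987361, plus strand: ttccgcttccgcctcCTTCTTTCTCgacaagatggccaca
EIF3K, chr19:38619173-38619212, plus strand: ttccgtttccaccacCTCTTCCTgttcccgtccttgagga
EIF4A2, chr3:186783562-186783601, plus strand: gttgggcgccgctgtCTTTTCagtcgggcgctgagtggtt
EIF4B, chr12:53006441-53006480, plus strand: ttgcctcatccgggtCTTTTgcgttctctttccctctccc
EIF1, chr17:41688870-41688909, plus strand: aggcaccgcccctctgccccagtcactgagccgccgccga
EIF3B, chr7:2354812-2354851, plus strand: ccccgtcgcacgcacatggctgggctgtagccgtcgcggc
EIF3I, chr1:32222392-32222431, plus strand: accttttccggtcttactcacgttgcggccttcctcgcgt
EIF4A1, chr17:7572810-7572849, plus strand: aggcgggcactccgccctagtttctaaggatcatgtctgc

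Of the 57 members matched to a RefSeq promoter, 13 (22.8%) began this way in at least 1 listed start, against 5.14% of 27305 symbols with a promoter. Only the strand of the gene was read, and 1 listed start need not be the one used in these cells. Of the 9 members listed as TOP mRNAs, 6 were matched and 5 had the run.

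The members spanned a wide range of steady levels. Per kilobase of exon, EEF1A1, which delivers aminoacyl-tRNA, had the highest median in 293T, 1240.3 (979.9 to 1776) CPM per kb over 18 libraries (lowest to highest in brackets). EEF2, the translocase, followed at 801 (528 to 1005), and the eEF1 subunit EEF1G at 584 (384 to 961). Neighbours in this order overlapped, and EEF2 was above EEF1A1 in V2084D replicate 3. In Huh7 the same 3 genes had the highest medians, at 943 (837 to 1218) CPM per kb for EEF1A1, 853 (761 to 1169.8) for EEF2 and 717 (557 to 817) for EEF1G over 9 libraries, again with overlap between neighbours. The order of the first 2 differed by group there: in WT, EEF2 stood at 1038, 1039 and 1169.8 CPM per kb and EEF1A1 at 841, 837 and 849, and in V2084D and shSTUB1 every EEF1A1 library was above every EEF2 library. The median over the members was 29.1 CPM per kb in 293T and 30.01 in Huh7. At the low end stood EIF4E3, a cap-binding paralog, with 1.80 CPM per kb in 293T and 4.18 in Huh7, and EIF5A2, a paralog of the hypusinated factor EIF5A, with 0.97 and 1.71. The cap-binding protein EIF4E itself was at 5.69 CPM per kb in 293T, against 209 for the helicase EIF4A1. Exon length here is the union of all annotated exons of a gene, 14067 bases for EIF4E and 5316 for EIF4A1. It can exceed the length of the mRNA in use, so the order of genes on this scale depends on it. EIF1AY, the Y-linked copy of EIF1AX, was counted as a member, and its level is not given.

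**Figure D1:**
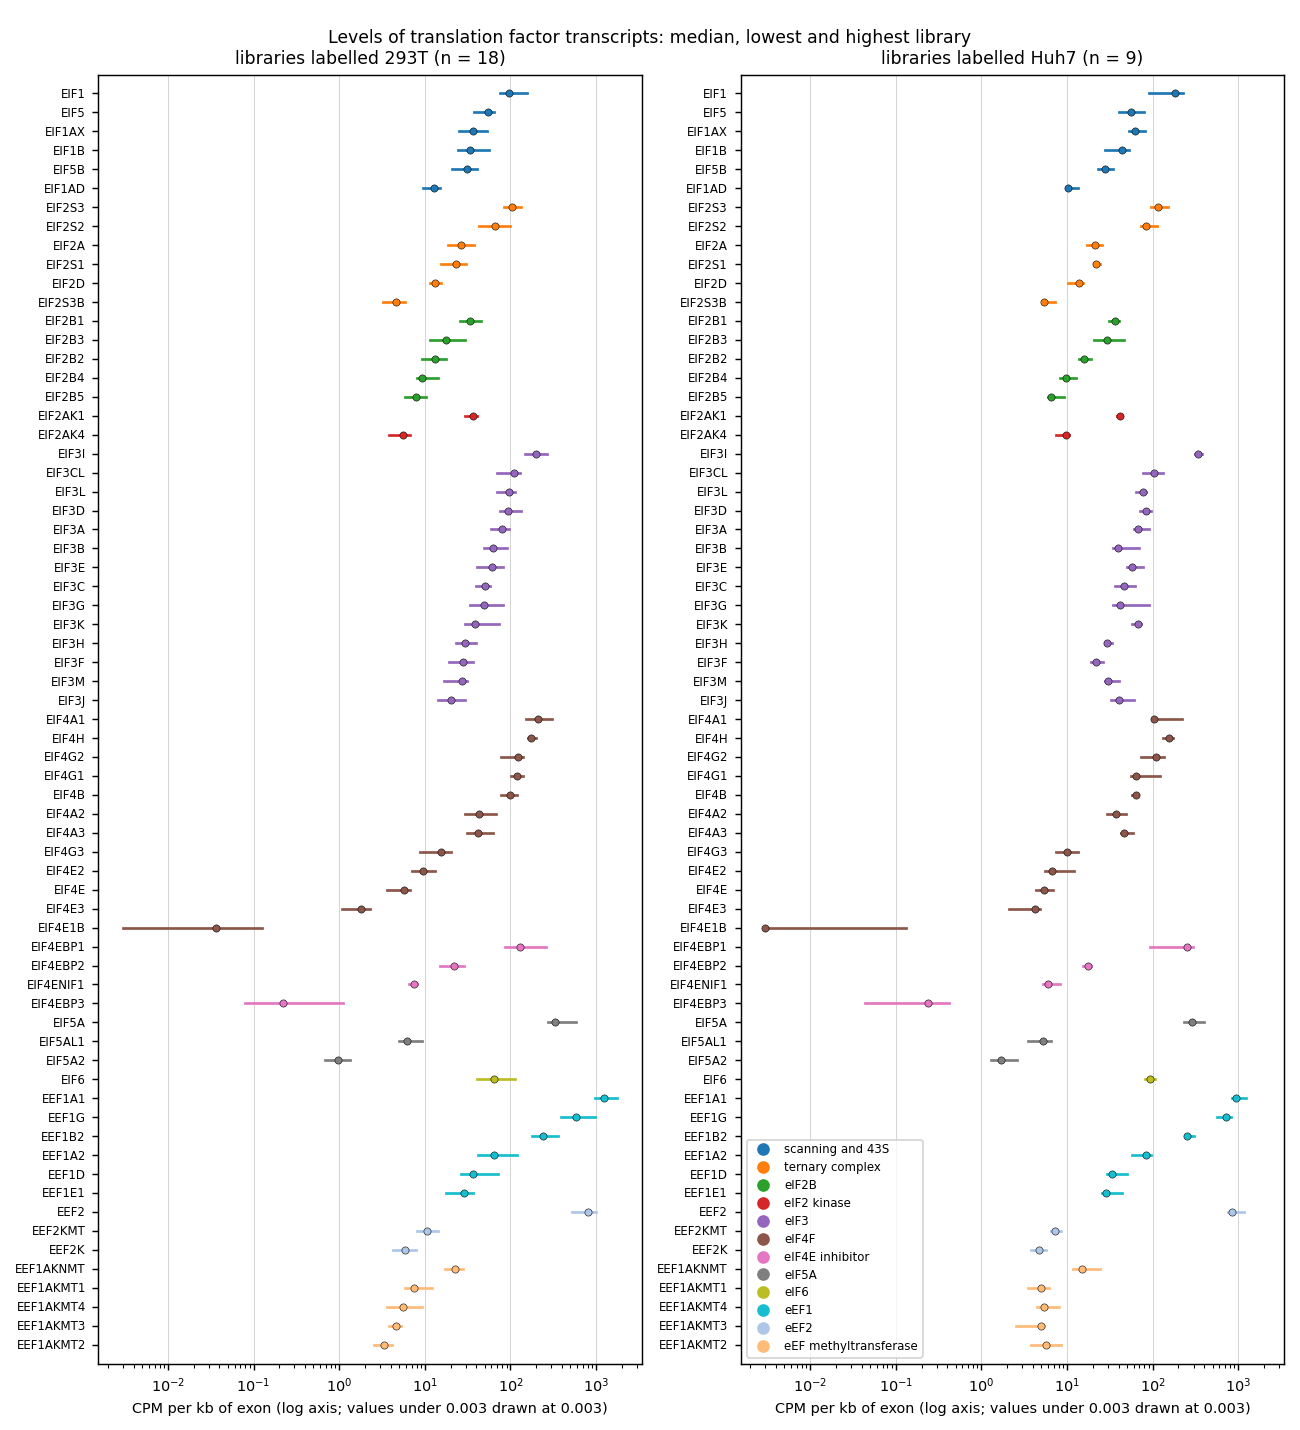
Levels of the members per kilobase of exon (CPM per kb, log axis), arranged by role, with a point for the median and a line from the lowest to the highest of the 18 libraries of 293T (left) and the 9 libraries of Huh7 (right); EIF1AY and the divergent and read-through rows are not drawn. EEF1A1 has the highest median in both lines, 1240.3 and 943 CPM per kb, and its range overlaps that of EEF2 in both.

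The comparison of V2084D with WT in Huh7 asks how a C-terminal missense change alters gene expression beside the wild-type form. Of 70 members tested, 14 were higher and 32 lower in V2084D (65.7%) at an adjusted p under 0.05 (edgeR quasi-likelihood test, Benjamini-Hochberg over 22510 genes), where 42% of all genes tested were called, 22% higher and 20% lower. The median member difference was -0.14 on the log2 scale, against 0.03 over all genes. The slope of a library's log2 deviation per 10% of GC was 0.08, 0.06 and 0.18 in WT and -0.01, -0.05 and 0.03 in V2084D. These groups did not overlap, and shSTUB1 was at -0.10, -0.09 and -0.10. Median GC was 50.7% for members called lower, 48.7% for those called higher and 45.0% for those not called. With offsets for GC content and exon length, 12 members were higher and 33 lower, where 43.9% of all genes were called. The start-codon factor EIF1 and the eIF4E inhibitor EIF4EBP1 were the members that rose with the smallest p, and EIF4A1, EIF3B, EIF3G and EIF4G1 those that fell. The summed level of the 9 genes of the 293 list was 738 to 776 CPM in WT, 366 to 420 in V2084D and 308 to 356 in shSTUB1. The fall from WT lay in IRS4, at 431 to 463, 15.2 to 21.6 and 14.4 to 23.5 CPM, and the other 8 genes summed to 307 to 318, 351 to 399 and 294 to 333 CPM. The mitochondrial share of counts was 3.27% to 3.50% in WT, 2.32% to 2.97% in V2084D and 3.73% to 4.04% in shSTUB1. The part of either in these results was not tested. The summed liver list was 19.2 to 25.02, 20.4 to 21.6 and 21.9 to 28.4 CPM.

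Among factors of scanning and the 43S complex, 2 of 6 rose and 3 fell. EIF1, which keeps the scanning ribosome from stopping at a wrong codon, stood at 327, 327 and 326 CPM in WT and at 758, 811 and 787 CPM in V2084D. Every V2084D library was above every WT library, a log2 difference of 1.24 ± 0.06 (SE) with an adjusted p of 2.56e-07, or 2.36-fold. Its close copy EIF1B also rose (0.79 on the log2 scale). EIF5, the GTPase activator of eIF2, was at 473, 471 and 437 CPM in WT and 347, 408 and 431 in V2084D, and it fell by 0.25 without overlap between the groups. The subunit-joining GTPase EIF5B fell by 0.34 and EIF1AD, which resembles eIF1A, by 0.36, while EIF1AX was not called.

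The ternary complex and its exchange factor split. EIF2S1, the eIF2 subunit phosphorylated under stress, was at 136, 137 and 122 CPM in WT and 117, 120.3 and 116 in V2084D (-0.19 ± 0.07, adjusted p = 0.0402). EIF2S3, the GTP-binding subunit, was at 359, 366 and 335 CPM in WT and 396, 397 and 371 in V2084D (0.11 ± 0.07, adjusted p = 0.224), and it was not called; nor were its near-copy EIF2S3B, EIF2S2 or EIF2A. EIF2D, which can place tRNA without eIF2, rose by 0.36. In eIF2B, EIF2B3 rose from 74.0, 70.9 and 71.1 CPM to 94.7, 100.3 and 113 CPM (0.48 ± 0.09, adjusted p = 0.00112). The other 4 subunits fell, EIF2B5 by 0.58, EIF2B4 by 0.48, EIF2B2 by 0.39 and EIF2B1 by 0.20, so the subunits of 1 complex did not move together. The eIF2 kinases EIF2AK1, which senses heme, and EIF2AK4, which senses uncharged tRNA, were not called. EIF2AK4 was at 119, 111 and 114 CPM in WT and 127, 128 and 118 in V2084D.

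Of the 14 genes of eIF3, the multi-subunit scaffold on the small subunit, 9 fell and 0 rose. EIF3B was at 619, 609.7 and 609 CPM in WT and 311, 319 and 351 in V2084D, a difference of -0.93 ± 0.06 on the log2 scale with an adjusted p of 1.14e-06. EIF3G, an RNA-binding subunit, fell from 272, 276 and 315 CPM to 134, 119.7 and 143 CPM (-1.15 ± 0.09, adjusted p = 5.26e-06). In neither gene did the groups overlap. EIF3A, the core scaffold subunit, was at 636, 638 and 631 CPM in WT and 474, 477 and 450.4 in V2084D (-0.47 ± 0.05, adjusted p = 6.02e-05). EIF3F fell by 0.43, EIF3L by 0.25, EIF3D by 0.16 and EIF3I by 0.15. EIF3C and EIF3CL fell by 0.67 and 0.65, but they are near-identical copies whose reads cannot be split with certainty. EIF3E, EIF3H, EIF3J, EIF3K and EIF3M were not called.

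Of the 12 genes grouped here with eIF4F by their EIF4 names, 7 fell and 3 rose. Not all are parts of the complex, among them EIF4A3, EIF4G2 and EIF4E2, and the 3 that rose include EIF4E1B on few counts. EIF4A1, the main helicase, stood at 1117, 1116 and 1170.2 CPM in WT and 529, 556 and 554 in V2084D (-1.08 ± 0.06, adjusted p = 4.34e-07). Every V2084D library was below every WT library. EIF4A1 shares its locus with the read-through row SENP3-EIF4A1, and how the authors divided such reads is not given in the sources used here. EIF4A2, the second helicase paralog, was at 295, 301 and 286 CPM in WT and 217, 224 and 232 in V2084D (-0.42 ± 0.08, adjusted p = 0.00182). The main scaffold EIF4G1 was at 913, 931 and 994 CPM in WT and 527, 524 and 523 in V2084D (-0.88 ± 0.08, adjusted p = 9.15e-06). EIF4G2, a scaffold without the cap-binding link, was at 1155, 1183 and 1134 CPM in WT and 628, 739 and 687 in V2084D (-0.78), and EIF4G3 (-0.47) and EIF4A3, an exon junction helicase (-0.36), fell as well. The helicase cofactors EIF4B and EIF4H were not called.

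The cap-binding paralogs went both ways. EIF4E was at 74.1, 75.4 and 61.8 CPM in WT and 87.0, 96.8 and 89.5 in V2084D, without overlap (0.34 ± 0.11, adjusted p = 0.0325). That call held in 7 of 12 alternative settings. EIF4E3 rose from 25.2, 27.6 and 22.4 CPM in WT to 50.7, 51.7 and 45.1 in V2084D (0.95 ± 0.09, adjusted p = 1.83e-05), and EIF4E2, which represses capped mRNAs, fell from 82.8, 82.7 and 85.6 CPM in WT to 47.6, 42.7 and 54.0 in V2084D (-0.82 ± 0.09, adjusted p = 3.59e-05). EIF4E1B was called higher on 20, 38 and 0 raw counts in V2084D against 0, 0 and 0 in WT; the groups overlapped, and no fold is given. Among the inhibitors that hold eIF4E away from eIF4G, EIF4EBP1, a target of mTOR, rose from 104, 99.3 and 112 CPM in WT to 269.6, 280.0 and 299.99 CPM in V2084D, 2.65-fold (1.41 ± 0.09, adjusted p = 1.32e-06). EIF4EBP2 was at 127, 139 and 130.2 CPM in WT and 122.9, 124 and 113 in V2084D and was not called (adjusted p = 0.0749). EIF4EBP3, which is rare here and overlaps a read-through of ANKHD1, had 4, 2 and 5 raw counts in WT and 18, 17 and 18 in V2084D (2.10 ± 0.76, adjusted p = 0.0466). The eIF4E transporter EIF4ENIF1 fell by 0.38.

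**Figure D2:**
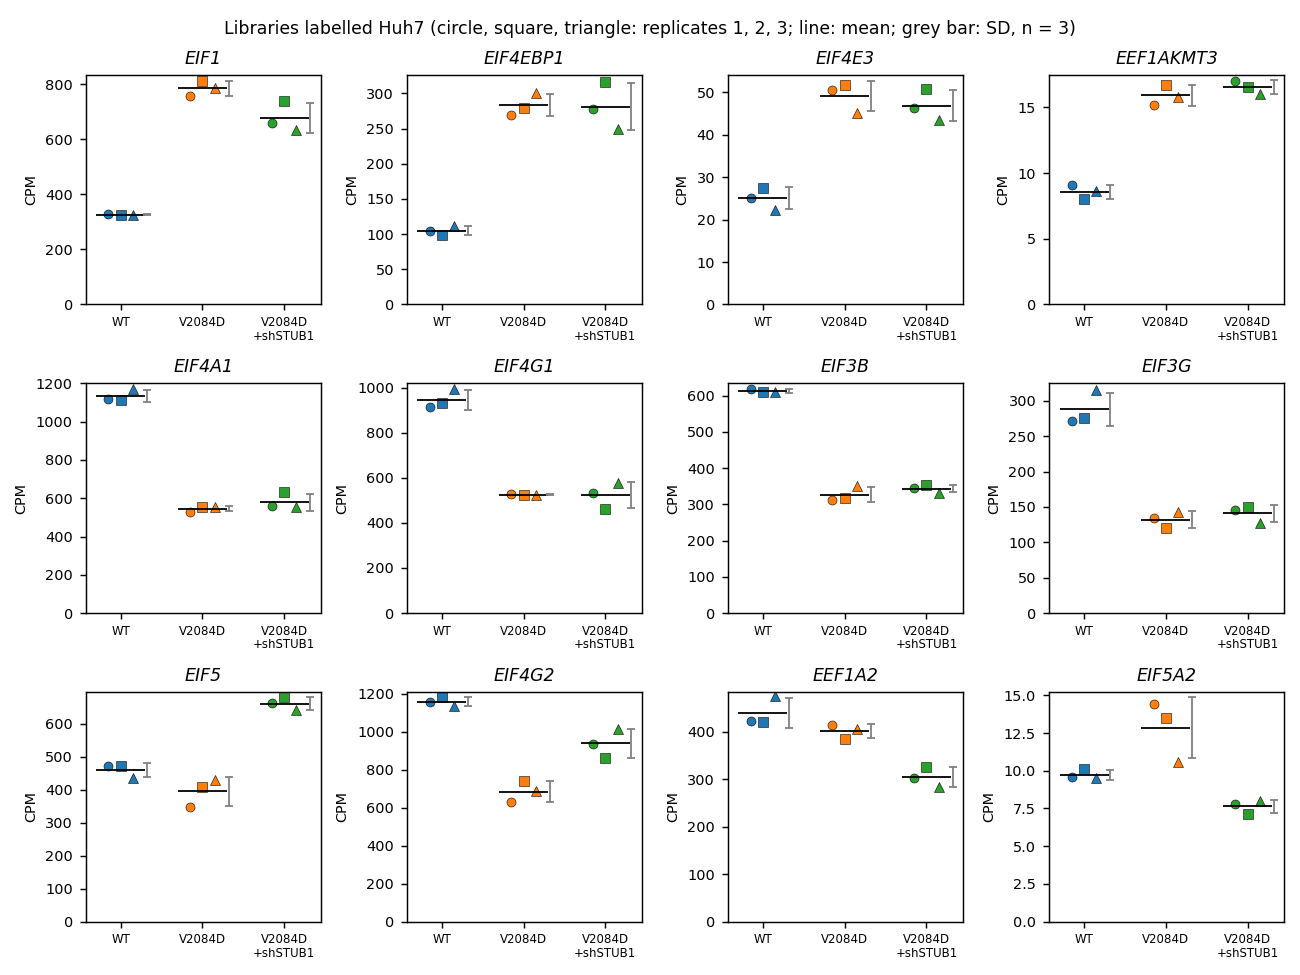
TMM-scaled CPM of 12 members in each of the 9 libraries labelled Huh7, by group (WT, V2084D and V2084D with shSTUB1), with the mean and SD of each group. EIF1 and EIF4EBP1 stand higher in all V2084D and shSTUB1 libraries than in WT, and EIF4A1, EIF3B and EIF4G1 lower.

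In elongation, 1 of 6 eEF1 genes and 2 of 3 eEF2 genes were called. EEF1A1 was at 5004, 4976 and 5049 CPM in WT and 5609, 5648 and 5446 in V2084D, and its difference of 0.13 ± 0.06 (95% interval 0.01 to 0.24) was not called (adjusted p = 0.109). The neuronal and muscle paralog EEF1A2 was at 423, 419.5 and 475 CPM in WT and 414, 385 and 406 in V2084D (-0.15 ± 0.07, adjusted p = 0.0948). The exchange subunit EEF1D fell by 0.53, while EEF1B2, EEF1G and EEF1E1 were not called. EEF2 was at 4179.8, 4182 and 4711 CPM in WT and 3554, 3435 and 3121 in V2084D (-0.40 ± 0.06, adjusted p = 0.000454). EEF2K, the kinase that inhibits eEF2, was at 31.3, 34.3 and 30.8 CPM in WT and 36.1, 37.3 and 37.2 in V2084D (0.17 ± 0.06, adjusted p = 0.0361), a call that held in 3 of 12 alternatives. EIF5A, which helps the ribosome through stalling sequences, fell from 1082, 1072 and 1128 CPM in WT to 647, 677 and 774 in V2084D (-0.67 ± 0.07, adjusted p = 3.4e-05). Its paralog EIF5A2 was at 9.57, 10.1 and 9.54 CPM in WT and 14.4, 13.5 and 10.6 in V2084D (0.37 ± 0.13, adjusted p = 0.0368, called in 4 of 12 alternatives), and EIF5AL1, a near-copy of EIF5A counted with uncertainty, fell by 0.48. EIF6, which keeps the large subunit from joining early, was at 138, 131 and 144 CPM in WT and 152, 155 and 143 in V2084D and was not called (adjusted p = 0.275).

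Among the methyltransferases that act on eEF1A, EEF1AKMT3 rose from 9.09, 8.02 and 8.65 CPM in WT to 15.2, 16.7 and 15.8 in V2084D (0.86 ± 0.09, adjusted p = 3.5e-05) and EEF1AKMT2 by 0.45. EEF1AKNMT fell by 0.84, EEF1AKMT4 by 0.63 and EEF1AKMT1 by 0.58, while EEF2KMT, which acts on eEF2, was not called. Of 3 divergent transcripts, EIF3J-DT rose by 0.53 and EIF2AK3-DT and EIF2B5-DT were not called. The read-through rows EEF1AKMT4-ECE2 and EEF1E1-BLOC1S5 share exons with their parent genes and are counted with uncertainty.

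The comparison of V2084D with shSTUB1 and V2084D alone asks which differences change with the STUB1 hairpin. No group labelled with a control hairpin stands beside it. Of the 70 members, 16 were higher and 3 lower with the hairpin (27.1%), against 21.5% of all genes called, 10.8% in each direction. With offsets for GC content and exon length the split was 12 higher and 7 lower. The count was 10 or 12 without V2084D replicate 1 or 2, and 12 without shSTUB1 replicate 1. EIF5, EIF4G2, EIF3CL and EIF2B3 rose with the smallest p, and EEF1A2, EIF5A2 and EIF1 fell.

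EIF5 stood at 347, 408 and 431 CPM in V2084D and 662, 681 and 642 with shSTUB1 (0.74 ± 0.08, adjusted p = 0.000184). All 3 hairpin libraries were also above the WT libraries. EIF4G2 was at 937, 863 and 1014 CPM with shSTUB1 (0.45 ± 0.07, adjusted p = 0.00153), between V2084D and WT. EIF2B3 rose once more, to 147, 158 and 132 CPM (0.50 ± 0.09, adjusted p = 0.0027). For EIF2B3 the 3 groups were ordered WT, V2084D and shSTUB1 without overlap. EIF3C and EIF3CL, the uncertain pair, rose by 0.30 and 0.35. EIF3J rose by 0.41 and EIF3M by 0.28. Of the 14 eIF3 genes 4 were called higher and 0 lower, where 10.8% of all genes were called in each direction. With offsets for GC content and exon length, 3 eIF3 genes were higher and 1 lower. EIF2S3 was at 486, 528 and 447 CPM with shSTUB1 (0.33 ± 0.07, adjusted p = 0.00633) and EEF2K at 44.9, 45.2 and 44.9 CPM (0.28 ± 0.06, adjusted p = 0.00683). Rises were also called for EIF2B1 (0.29), EIF5B (0.36), EEF1AKMT1 (0.50), EEF1AKMT2 (0.41) and EEF1E1, a scaffold of the aminoacyl-tRNA synthetase complex (0.48).

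EEF1A1 was at 6169, 7247 and 5989 CPM with shSTUB1, above all V2084D libraries (0.21 ± 0.06, adjusted p = 0.0251, called in 5 of 12 alternatives). EEF1A2 fell to 303, 325 and 283 CPM (-0.40 ± 0.07, adjusted p = 0.00231). These paralogs encode the same activity, and they moved in opposite directions. EIF5A2 fell to 7.78, 7.16 and 7.96 CPM (-0.75 ± 0.13, adjusted p = 0.00255), and EIF5A was at 812, 872 and 764 CPM, where the groups overlapped (0.22 ± 0.07, adjusted p = 0.0499, called in 4 of 12 alternatives). EIF1 was at 659, 741 and 634 CPM (-0.21 ± 0.06, adjusted p = 0.0246, called in 6 of 12 alternatives) and stayed above every WT library.

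The other members followed whatever their change were not called between the hairpin and V2084D alone. With shSTUB1, EEF2 was at 3326, 3065 and 3386 CPM (95% interval of the log2 difference -0.17 to 0.07). EIF4A1 was at 557, 631 and 552 CPM (-0.02 to 0.19) and the scaffold EIF4G1 at 533, 461 and 578 CPM (-0.15 to 0.14). These 3 genes, which were lower in V2084D than in WT, stayed below every WT library. EIF3A was at 460.2, 429 and 482 CPM (-0.14 to 0.07) and EIF4A2 at 193, 226 and 178 CPM (-0.33 to -0.02), below every WT library too. EIF4EBP1 was at 278, 316 and 249.7 CPM (-0.18 to 0.16), above every WT library. EIF4E was at 75.6, 97.2 and 75.2 CPM (-0.37 to 0.08), where the hairpin libraries overlapped both other groups. EIF4EBP2 was at 129, 124 and 137 CPM, EIF2S1 at 129, 130.01 and 122 CPM and EIF6 at 159, 173 and 152 CPM. EIF2AK4 was at 104, 88.6 and 119 CPM.

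Set directly against WT, shSTUB1 had 20 members higher and 27 lower (67.1%), where 45.1% of all genes were called, 23.5% higher and 21.7% lower. This comparison shares the WT libraries with the first and the shSTUB1 libraries with the second. Its median member difference was -0.06, against 0.02 over all genes. EIF1 (1.03 ± 0.06, adjusted p = 6.73e-07), EIF4EBP1 (1.39 ± 0.09, adjusted p = 1.13e-06), EIF2B3 (0.99 ± 0.09, adjusted p = 8.76e-06) and EEF1AKMT3 (0.92 ± 0.09, adjusted p = 2.01e-05) rose with the smallest p. EIF4A1 (-0.99 ± 0.06, adjusted p = 6.32e-07), EIF3B (-0.86 ± 0.06, adjusted p = 1.45e-06), EIF4E2 (-1.04 ± 0.09, adjusted p = 6.87e-06) and EIF3G (-1.06 ± 0.09, adjusted p = 7.13e-06) fell. EEF1A1 rose by 0.34, EIF2S3 by 0.43 and EEF2K by 0.46, and EEF2 fell by 0.45, EEF1A2 by 0.56 and EIF4G1 by 0.88.

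**Figure D3:**
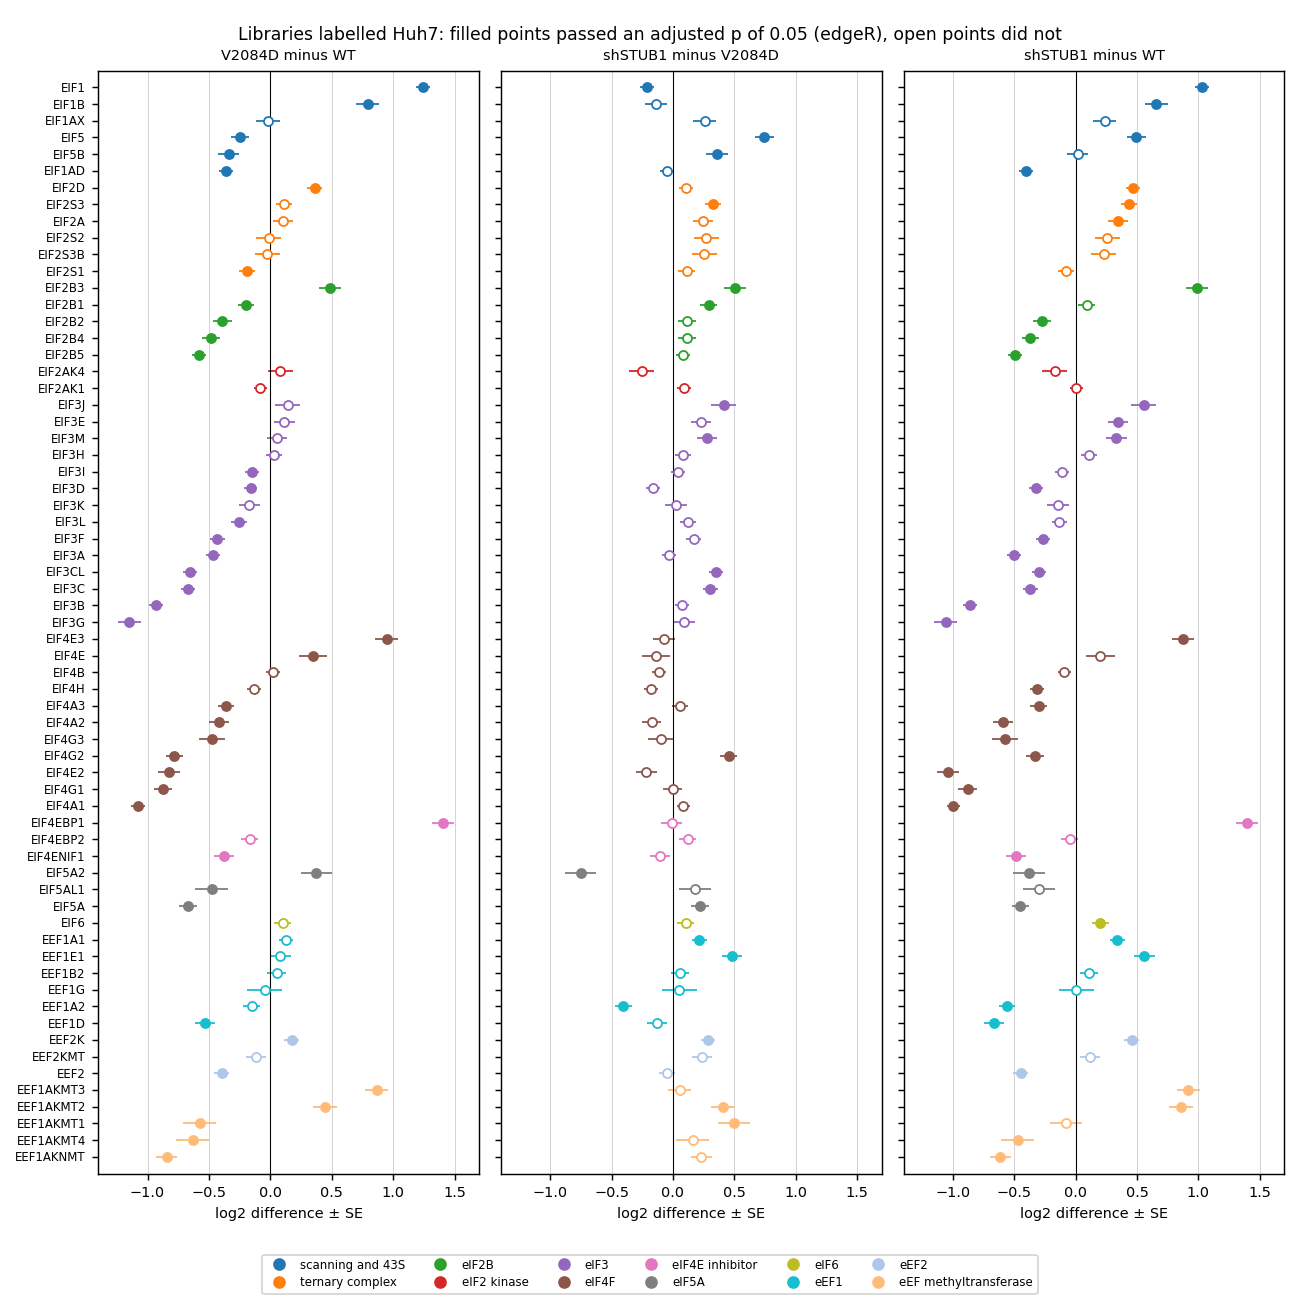
Log2 differences (points) and SE (bars) of the members in the 3 comparisons within Huh7, arranged by role, with filled points for an adjusted p under 0.05; EIF4E1B, EIF4EBP3 and the read-through rows are not drawn. The eIF3 genes that pass lie below 0 in V2084D against WT, and EIF1, EIF4EBP1 and EIF4E3 lie above it.

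In 293T the first question is what adding ARID1A back changes. WT against KO called 0 of 72 members (edgeR, 0% of 23201 genes), and DESeq2 also called 0 members. By edgeR 24 of the 72 members had an unadjusted p under 0.05, as did 2544 of the 23201 genes. The median member difference was 0.20 against 0.01 over all genes, and 52 of the 72 were above 0. KO replicate 3 had the lowest median member level of the 18 libraries, -0.35 on the log2 scale about each gene's mean, against -0.10 and -0.13 in KO replicates 1 and 2. EIF1 had the smallest p: it was at 302, 302 and 272 CPM in KO and 431, 355 and 467 in WT, without overlap (0.52 ± 0.14, adjusted p = 0.343 by edgeR). EIF3I was at 254, 258 and 259 CPM in KO and 394, 313 and 351 in WT (0.46 ± 0.14, adjusted p = 0.343). In the other direction EIF4E3 (-0.40) and EEF2K (-0.31) had the smallest p and were not called.

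The 3 missense proteins V2084D, G2087E and G2087R also gave 0 called members against KO (0% of genes in each), and DESeq2 called 0 members. By edgeR 7, 16 and 11 members had an unadjusted p under 0.05, as did 1120, 1314 and 1001 of 23201 genes. The median member differences were 0.18, 0.17 and 0.10. EEF1A1 was the member with the smallest p among those below KO in each. It stood at 8699.7, 8421 and 8661 CPM in KO, 7254, 6286 and 5828 in V2084D, 6805, 6279 and 6606 in G2087E and 7369.8, 6590.1 and 6305 in G2087R. None of these 9 libraries reached the KO level, though no difference was called: -0.41 ± 0.13, -0.39 ± 0.13 and -0.34 ± 0.13, with adjusted p of 0.967, 0.853 and 0.973 by edgeR. In WT, EEF1A1 was at 10562, 8063 and 7384 CPM and in K2025E at 7698, 8309 and 8599.9 CPM, which overlap KO. Members above KO with the smallest p were EIF3I (0.37) and EIF2B2 (0.51) in V2084D, EIF2B5 (0.56) and EIF2B2 (0.60) in G2087E, and EIF3L (0.36) and EEF2KMT (0.46) in G2087R. Below KO, EIF2AK4 (-0.21) came next in V2084D and EIF3J (-0.32) in G2087R. In G2087E it was EEF1E1-BLOC1S5, a row with 0, 0 and 42 raw counts in KO, 0, 0 and 26 in WT and 0 in all 3 G2087E libraries, so no fold is given. Without G2087R replicates 1 and 2, 0 members were called against KO in a fit whose G2087R arm was 1 library, assumed to vary like the other groups, which says nothing about stability.

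Across all 18 libraries of 293T, the median member differed by 0.48 on the log2 scale between its highest and lowest group mean, with a pooled SD within groups of 0.23. In Huh7 these were 0.49 and 0.10, so the spread within groups was smaller there. The cap-binding EIF4E ran from 3.64 to 6.75 CPM per kb in 293T, EIF4A2 from 29.1 to 66.9 and EIF4G1 from 101 to 139. EIF2AK1, the heme-sensing kinase, was among the steadiest members, with group means within 0.12 on the log2 scale in 293T and 0.09 in Huh7. EIF6, EEF1A2 and EIF4EBP1 moved by 1.01, 0.98 and 0.98 between their highest group mean in 293T, that of K2025E, and their lowest, that of KO.

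**Figure D4:**
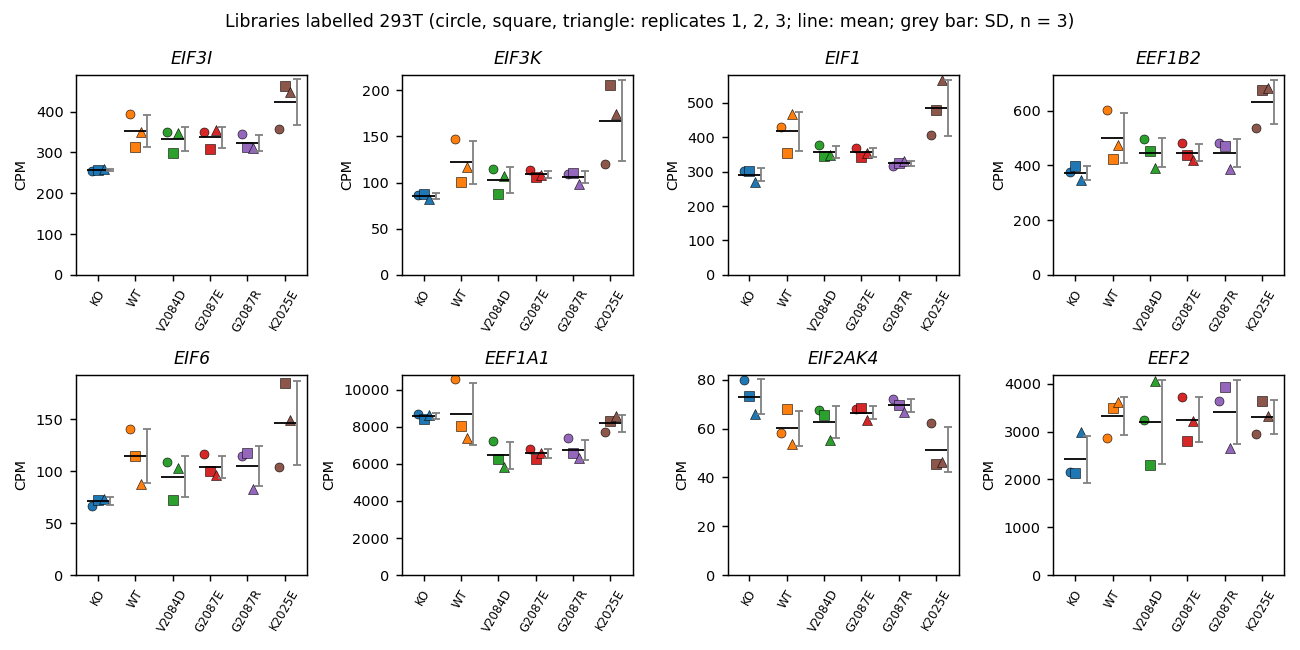
TMM-scaled CPM of 8 members in each of the 18 libraries of 293T, by group, with the mean and SD of each group. EIF1 and EIF3I stand lowest in KO, and EEF1A1 is below its KO level in all libraries of V2084D, G2087E and G2087R.

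K2025E was the 1 form with called members against KO in 293T: 22 higher and 1 lower of 72 (31.9%), where 12.9% of all genes were called, 7.17% higher and 5.72% lower. The median member difference was 0.33 against -0.02 over all genes. The count depended on the libraries kept: without K2025E replicate 2 it was 0, without replicate 3 it was 7 and without replicate 1 it was 30. Without KO replicate 1, 2 or 3 it was 9, 6 or 14, and in a fit of these 2 groups only it was 4. The share of all genes called in these refits is not given here. Without K2025E replicates 2 and 3 together, an arm of 1 library, the median member difference was 0.22. By role, 7 of 14 eIF3 genes, 4 of 5 eIF2B genes and 3 of 6 eEF1 genes were higher, and 0 of 6 ternary complex genes were called. EIF3K, an eIF3 subunit, was at 86.4, 87.8 and 82.2 CPM in KO and 119.7, 206 and 175 in K2025E (0.97 ± 0.18, adjusted p = 0.00674). EIF3I, at 358, 462 and 449 CPM, was higher by 0.72 ± 0.14 (adjusted p = 0.00674), and EIF1, at 407, 479 and 568 CPM, by 0.73 ± 0.14 (adjusted p = 0.00674). EEF1B2, the exchange factor for eEF1A, was at 377, 396 and 346 CPM in KO and 538, 675 and 684 in K2025E (0.76 ± 0.16, adjusted p = 0.00769). In all 4 genes each K2025E library was above each KO library.

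EIF6 was at 66.5, 72.8 and 73.7 CPM in KO and 105, 185 and 149.6 in K2025E (1.05 ± 0.22, adjusted p = 0.0083). EEF1A2 was at 214, 205 and 254 CPM in KO and 314, 587 and 468 in K2025E (1.03 ± 0.23, adjusted p = 0.01). EIF4A1 was at 920.0, 867 and 799 CPM in KO and 1158, 1438 and 1619 in K2025E (0.71 ± 0.16, adjusted p = 0.0102). In these genes K2025E replicate 2 or 3 was the highest K2025E library. EIF5A was at 785, 809.6 and 765 CPM in KO and 1024, 1628 and 1271 in K2025E (0.73 ± 0.18, adjusted p = 0.0132), and EIF4EBP1 at 101, 109 and 109 CPM in KO and 162, 281 and 204 in K2025E (1.02 ± 0.26, adjusted p = 0.0194). Also called higher were EIF3B, EIF3D, EIF3F, EIF3G, EIF3L, EIF2B2, EIF2B3, EIF2B4, EIF2B5, EEF1D, EEF1AKMT1, EEF1AKMT4 and EIF5AL1, by 0.48 (EIF3L) to 0.91 (EEF1D). EIF2AK4 was the 1 member called lower, at 80.0, 73.3 and 65.9 CPM in KO and 62.1, 45.6 and 46.5 in K2025E (-0.51 ± 0.15, adjusted p = 0.0381).

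GC content differed between the members called and not called. The 22 members called higher had a median GC of 52.4%, against 45.5% for the 49 not called. The slope of a library's log2 deviation per 10% of GC was -0.02, 0.41 and 0.08 in K2025E replicates 1, 2 and 3 and -0.23, -0.23 and 0.10 in those of KO, so the groups overlapped. The slope per doubling of exon length was 0.02, -0.13 and -0.10 in K2025E and 0.04, 0.03 and -0.01 in KO, which overlapped as well. The mitochondrial share of counts was 2.06% to 3.81% in K2025E, lowest in replicate 2, and 4.99% to 5.33% in KO. The summed 293 list was 355 to 585 CPM in K2025E and 648 to 731 in KO, and the part of these 2 measures in the calls was not tested. With offsets for GC content and exon length in each library, 35 members were higher and 0 lower, where 15.5% of genes were called, 9.81% higher and 5.72% lower. EIF2AK4 then had a difference of -0.06 (adjusted p = 0.805), and EEF1AKMT4 and EIF5AL1 were no longer called, while EIF3F moved from 0.60 to 0.95. Members not called against KO included EEF2 (2144, 2128 and 2983 CPM in KO, 2946, 3644 and 3322 in K2025E, adjusted p = 0.137) and EIF3A (674, 654 and 554 CPM in KO and 606, 510.1 and 421 in K2025E, adjusted p = 0.19). Also not called were EIF2S1 (0.05), EIF2S3 (-0.10), EIF4E (0.03), EIF4A2 (0.34), EIF4G1 (0.02), EIF4EBP2 (-0.40), EIF5A2 (-0.22) and EEF2K (-0.38).

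**Figure D5:**
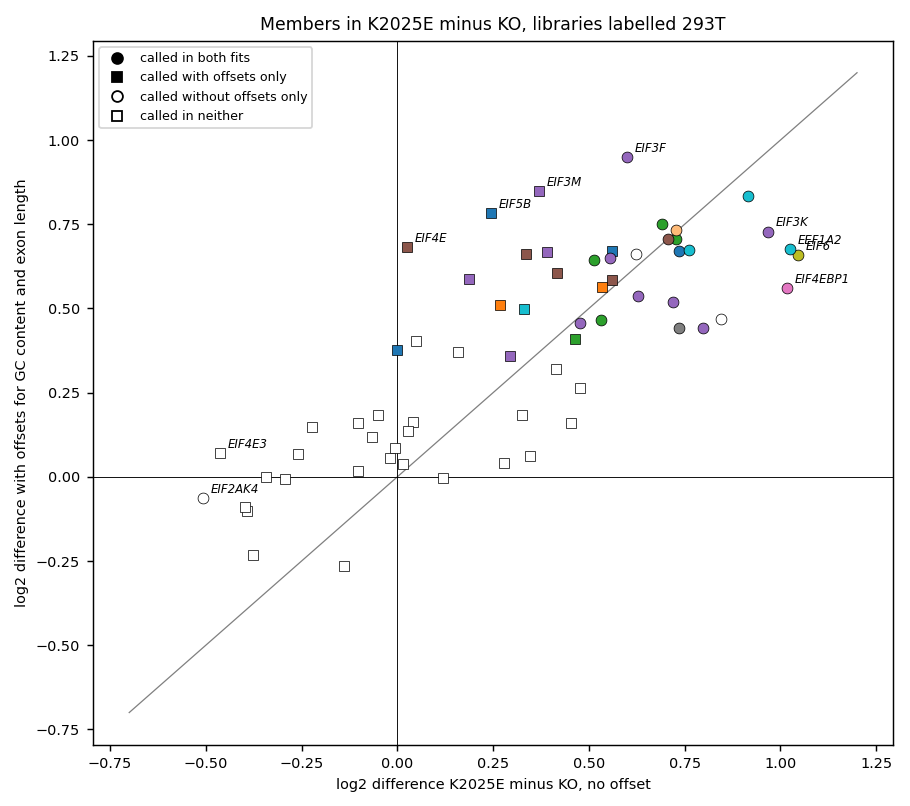
Log2 difference of K2025E minus KO for each member without offsets (horizontal axis) and with offsets for GC content and exon length (vertical axis), with the line of equality. EIF2AK4 moves from -0.51 to -0.06 and EIF3F from 0.60 to 0.95.

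Set against WT in 293T, 0 of 72 members were called for V2084D, G2087E, G2087R or K2025E, where 0%, 0%, 0.00431% and 0.00431% of genes were called. DESeq2 called 0 members in each. By edgeR 1, 1, 3 and 6 members had an unadjusted p under 0.05, as did 467, 475, 1032 and 1919 of 23201 genes. EEF1A1 was again the lowest in p for V2084D (-0.43 ± 0.13, adjusted p = 1 by edgeR), G2087E (-0.41 ± 0.13, adjusted p = 1) and G2087R (-0.36 ± 0.13, adjusted p = 0.981). In none did those libraries overlap WT, though G2087R replicate 1 (7369.8 CPM) was close to WT replicate 3 (7384 CPM). With the EEF1A1 pseudogene rows added, these 2 libraries stood at 8004 and 7994 CPM, so that G2087R overlapped WT. Next below WT were EIF1 in V2084D (-0.23) and G2087R (-0.36), and EEF1E1-BLOC1S5 in G2087E, on the counts given above. Above WT, EIF4E3 had 0.34 in V2084D and 0.34 in G2087E, EIF2S3 0.27 in V2084D, EIF1AD 0.23 in G2087E, and EEF2K 0.40 and EEF1G 0.38 in G2087R. In K2025E, EIF3K (0.45) and EEF1AKMT1 (0.43) were above WT and EIF4G3 (-0.45) and EIF4G2 (-0.32) below it.

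V2084D against WT was measured in both lines, and the difference between the lines was tested itself in 1 joint fit of 24546 genes. It was called for 16 of 72 members (22.2%), with V2084D minus WT higher in Huh7 than in 293T for 6 and lower for 10. Of all genes 9.72% were called, 5.5% higher and 4.21% lower. Without Huh7 WT replicate 3 the difference between the lines was called for 10 members. EIF1 had the smallest p: V2084D minus WT was 1.24 in Huh7 and -0.23 in 293T. EIF4EBP1 was at 200.1, 157 and 112 CPM in WT and 149, 101 and 124 in V2084D of 293T, where the groups overlapped (-0.33), against 1.41 in Huh7. EIF4A1 was -1.08 in Huh7 and -0.10 in 293T, and EIF3B -0.93 and -0.05. ARID1A itself stood far lower in the Huh7 libraries than in the 293T add-backs of WT and V2084D, so the line and the amount of ARID1A cannot be told apart.

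The lines also differed at WT. Of 72 members, 8 were higher and 11 lower in Huh7 (26.4%), where 23% of genes were called, 10.5% higher and 12.5% lower; line, table and ARID1A amount cannot be told apart. With GC and length offsets 31 members were called, where 31.5% of all genes were called. Without Huh7 WT replicate 2 the count of members was 12, and the share of all genes in that fit is not given here. EIF3I was at 606, 589 and 645 CPM in Huh7 and 394, 313 and 351 in 293T (0.80 ± 0.11, adjusted p = 1.58e-05). EIF2AK4 was at 119, 111 and 114 CPM in Huh7 and 58.4, 68.0 and 53.9 in 293T (0.94 ± 0.13, adjusted p = 1.71e-05). EIF3J, at 122, 124 and 105 CPM in Huh7 and 70.0, 61.2 and 60.01 in 293T, was higher by 0.88 ± 0.19 (adjusted p = 0.00177), and EIF3K by 0.68 ± 0.16 (adjusted p = 0.0028). All 4 of the eIF3 genes called, EIF3G included, were higher in Huh7. With the GC and length offsets 5 were higher and 1 lower, and the median of the eIF3 genes moved from 0.19 to -0.0094. EEF1A1 was lower, at 5004, 4976 and 5049 CPM in Huh7 against 10562, 8063 and 7384 in 293T (-0.79 ± 0.12, adjusted p = 4.51e-05). EIF4B was at 384, 394 and 387 CPM in Huh7 and 556, 536 and 733 in 293T (-0.65 ± 0.13, adjusted p = 0.000852), EEF1AKMT3 at 9.09, 8.02 and 8.65 CPM in Huh7 and 13.2, 14.4 and 15.4 in 293T (-0.74 ± 0.14, adjusted p = 0.000328), and EEF2KMT at 22.6, 22.7 and 21.5 CPM in Huh7 and 36.5, 35.5 and 26.6 in 293T (-0.56 ± 0.14, adjusted p = 0.00587).

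Summed over all members, the factors took 2.34% to 3.14% of the counts of a library. The sum was 25836 ± 665 CPM (SD, n = 3) in 293T KO, 29213 ± 1915 in WT and 30182 ± 1987 in K2025E. In Huh7 it was 27395 ± 210.0 CPM in WT, 24245 ± 341 in V2084D and 26204 ± 1423 with shSTUB1. An exact two-sided permutation test of 3 libraries against 3 cannot go below p = 0.1, and the smallest adjusted p over the 12 comparisons was 0.24. EEF1A1 made up 22.7% to 34.5% of member counts in 293T and 18.2% to 26.1% in Huh7.

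Members with a pyrimidine run at the start, such as those printed above, were read as a group beside the rest. In K2025E against KO, 4 of the 13 were higher and 0 lower (median 0.34), against 12 higher and 1 lower of 44 without the run (median 0.21), where 12.9% of all genes were called. In V2084D against WT of Huh7, 1 was higher and 4 lower of 13 (median 0.02), against 11 higher and 21 lower of 42 (median -0.16), where 42% of all genes were called. EIF1, EIF4A1 and EIF3B, the members with the smallest p there, have no such run in their window, and EEF1A1, which has one, was not called. Of the 9 listed TOP members, 0 rose and 3 fell in V2084D against WT of Huh7, where 42% of all genes were called. In K2025E against KO 3 of the 9 rose and 0 fell, where 12.9% of all genes were called. In V2084D against WT of Huh7, the shares called among the listed TOP members and among those with the run were near that of all genes or a little below it. The lists are short, 5 members are in both, and the gap was not tested. With shSTUB1 against WT, 5 with the run were higher and 4 lower of 13, beside 12 and 17 of 42 without it, where 45.1% of all genes were called. Against V2084D alone, 3 were higher and 0 lower of 13, beside 11 and 2 of 42, where 21.5% were called.

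Other genes of the same pathway, 37 of which were tested, were counted by the same calls. In V2084D against WT of Huh7, 12 rose and 13 fell (67.6%, against 42% of all genes). PPP1R15A, the stress-induced phosphatase subunit that reverses eIF2 phosphorylation, rose by 1.69 ± 0.09 (adjusted p = 5.2e-07), and HBS1L, a ribosome rescue factor, by 0.76 ± 0.07 (adjusted p = 1.37e-05). PABPC4, a poly(A)-binding protein, fell (-0.60 ± 0.05, adjusted p = 7.39e-06). With shSTUB1 against V2084D, 5 rose and 7 fell (32.4%, against 21.5% of all genes), among them MKNK2, a kinase of eIF4E (-0.68 ± 0.06, adjusted p = 0.000114). In K2025E against KO 5 rose and 0 fell (13.5%, near the 12.9% of all genes), with DOHH, an enzyme that makes the hypusine of eIF5A, at 1.22 ± 0.24 (adjusted p = 0.00718). Against WT, shSTUB1 had 16 higher and 11 lower (73.0%, against 45.1% of all genes), with MKNK2 at -0.95 ± 0.06 (adjusted p = 1.53e-06). Between the lines at WT, 3 were higher and 3 lower in Huh7 (16.2%, below the 23% of all genes), and in the other comparisons of 293T 0 were called.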

How the data were processed

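Gene counts of 27 libraries were deposited by the authors as 2 tables, 18 libraries of 293T and 9 of Huh7, with 0 columns of no sample. The unit is the raw read count per gene and library; GRCh38 and edgeR are named per the submitters' processing notes, with no version, and the aligner, counter, annotation release and strand setting are not given in the sources used here. Each line was fitted in R 4.3.3 with edgeR 4.0.16 (limma 3.58.1) on the counts as deposited: filterByExpr (minimum count 10, total 15), TMM scaling and a quasi-likelihood F test of all groups of the line, with p-values adjusted by Benjamini-Hochberg over 23201 genes in 293T and 22510 in Huh7 and called under 0.05. The biological coefficient of variation was 30.9% and 24.8%. Both lines were also fitted together over 24546 genes. Log2 differences are those of the fit, and the SE of each is its size over the square root of F. A prior count of 2 was used only for log2 CPM. Exon lengths are the union of all exons annotated for a gene in GENCODE 29.

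Members and lists were chosen with earlier results of these data known. Every member is named by role. Values go to 17 members listed whatever their change, to the 4 called members with the smallest adjusted p in each direction, and, where fewer than 2 were called, as values only to the 2 with the smallest p. Replicates of every group differed beyond counting noise (chi-square per degree of freedom 11.1 to 309.7), so none was counted as a repeat. Same-numbered libraries deviated together (every r above 0.1) only for G2087R and WT in 293T (0.13, 0.18 and 0.32), and the numbers are otherwise only names. Alternatives were DESeq2 1.42.0, RLE scaling, no filter, offsets for GC content and exon length (splines with 5 degrees of freedom), a replicate block, fits of 2 groups only, each library left out, and fits lacking G2087R replicates 1 and 2 or K2025E replicates 2 and 3. The steps were tested on simulated data. The level of the Y-linked member is not given.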

Additional observations from a re-analysis of the deposited data

Results flagged for a closer look

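For 16 members the difference between V2084D and WT was not the same in Huh7 and in 293T by the test of that difference (edgeR quasi-likelihood test, both lines in 1 fit, Benjamini-Hochberg over all genes). Values are the log2 difference in Huh7 minus that in 293T. EIF1 led with 1.49 ± 0.16 (SE, adjusted p = 4.05e-06), then EIF4EBP1 with 1.76 (adjusted p = 0.00106), EEF1AKMT3 with 0.85 and EIF1B with 0.98. EEF1A1 had 0.58 (adjusted p = 0.0317) and EIF2B3 0.72. In these 6 the V2084D minus WT difference, not the level, was higher in Huh7 than in 293T. That difference was lower in Huh7 for 10 members. They were EIF4G1 at -0.86 (adjusted p = 0.000677), EIF3B at -0.86, EIF4A1 at -0.96, EIF4E2 at -0.79, EEF1AKNMT at -0.73 and EIF4G2 at -0.79. The others were EIF3G at -0.98, EIF3C at -0.62, EIF2B5 at -0.56 and EIF1AD at -0.55. With offsets for GC content and exon length, EEF1A1 (adjusted p = 0.0536) and EIF2B5 (adjusted p = 0.0674) were no longer called. EIF3C shares reads with its copy EIF3CL, so its value is uncertain.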

How the results depend on the processing

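Counts and medians are of members, with differences on the log2 scale. Offsets for GC content and exon length moved the median of WT minus KO to 0.31 and of K2025E minus KO to 0.41. With them 35 members were called in the latter and 31 in Huh7 WT minus 293T WT. The shares of all genes called in these 2 were 15.5% and 31.5%. The offsets gave -0.0913 for the median of shSTUB1 minus WT, which was -0.0314 with no filter. In K2025E minus KO, 4 members were called in a fit of the 2 groups only. In the fit lacking K2025E replicates 2 and 3, 0 were called and the median was 0.22, and K2025E minus WT had a median of -0.0211. DESeq2 and RLE scaling moved no count past 1.5 times. On CPM scaled without the ARID1A counts, the summed level turned to -0.0695 for V2084D, -0.0212 for G2087E and -0.0216 for G2087R against KO, and to -0.0167 for K2025E against WT. Single members that turned were EIF4E3 in K2025E minus KO with the offsets (0.0707), EEF1G in G2087R minus WT lacking G2087R replicates 1 and 2 (-0.39), and EIF3K (-0.0398) and EIF4G2 (0.0289) in K2025E minus WT lacking K2025E replicates 2 and 3. Apart from the arms made smaller, the cause was not tested.

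With each library left out in turn, the median ranged from 0.12 to 0.29 in WT minus KO, 0.0789 to 0.23 in V2084D minus KO, 0.0594 to 0.23 in G2087E minus KO, 0.24 to 0.37 in K2025E minus KO, -0.15 to -0.11 in Huh7 V2084D minus WT, -0.089 to -0.0059 in shSTUB1 minus WT and -0.0717 to 0.0698 in Huh7 WT minus 293T WT. Members called ranged from 0 to 30 in K2025E minus KO, 0 to 2 in K2025E minus WT, 10 to 21 in shSTUB1 minus V2084D, 12 to 18 in Huh7 WT minus 293T WT and 10 to 16 for the difference between the lines, an alternative chosen after seeing the data. With a replicate block, 27 members were called in K2025E minus KO, 38 in Huh7 V2084D minus WT, 19 in shSTUB1 minus V2084D, 46 in shSTUB1 minus WT and 0 in the other comparisons of 293T, and no single member named changed its call.

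Members with few counts, such as EIF4E1B and EIF4EBP3, have no firm fold at this depth. With 3 libraries a group, a library apart can carry a comparison.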

Other observations

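Shares within paralog pairs, on a scale of CPM per kb, are given as group means ± SD over 3 libraries, with no test. EEF1A2 made up 3.06% ± 0.32 of the EEF1A1 and EEF1A2 sum in 293T KO, below every other group of either line, and 6.26% ± 1.59 in K2025E. In Huh7 its share was 9.60% ± 0.55 in WT, 8.04% ± 0.36 in V2084D and 5.40% ± 0.23 with shSTUB1, an order without overlap between libraries. EIF4A2 made up 18.3% ± 0.78 of the helicase pair in Huh7 WT, 26.2% ± 0.41 in V2084D and 22.9% ± 0.93 with shSTUB1, again without overlap. EIF1B made up 24.1% ± 0.34 of its pair with EIF1 in Huh7 WT and 18.9% ± 1.43 in V2084D, although both genes rose there.

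Of 39 pseudogene rows of EEF1A1, 30 carried a count. Together they held 4.45% to 9.03% of the EEF1A1 count in a 293T library and 11.4% to 17.5% in a Huh7 library, with a median of 8.51% over both lines. With these rows added, EEF1A1 at WT was 5757, 5616 and 5765 CPM in Huh7 and 11252, 8560.5 and 7994 in 293T.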
